A study of Sus scrofa with 4 samples.

Results

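WNT5B, CTNNB1 and ZEB1, genes of Wnt signalling and of the epithelial-mesenchymal transition (EMT), were followed in porcine granulosa cells (GCs) exposed or not to non-esterified fatty acids (NEFAs). They were chosen by name. The array's probe annotation gives each of them 1 probe, EMPV1_26851 for WNT5B, EMPV1_04439 for CTNNB1 and EMPV1_16686 for ZEB1, so these are 3 of the 9962 genes with a value on all 4 arrays, of 10022 genes named. The choice was made with ratios from these same arrays in view. The ratios of the 3 genes are therefore a description, without a test.

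The RNA came from GC monolayers grown from the follicles of abattoir ovaries and then cocultured with cumulus-oocyte complexes (COCs) during in vitro maturation (IVM). The NEFA group received a mixture of palmitic, stearic and oleic acid in the maturation medium, and the control group received the same medium with the same albumin and ethanol but no NEFAs. Both groups were given epidermal growth factor and follicular fluid, and at the start also follicle-stimulating hormone, luteinizing hormone and dibutyryl-cAMP. Each of 4 biological replicates, collected on different days, gave 1 NEFA and 1 control RNA, and the pair was hybridized to 1 of 4 dual-dye arrays, A to D. The cells of the wells of 1 plate were pooled in each RNA. The ages of the animals were not given, and the COCs came from other ovaries.

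Wnt ligands are secreted proteins that bind frizzled receptors. In the canonical branch this halts the destruction complex, so that beta-catenin, the product of CTNNB1, accumulates and acts in the nucleus with TCF/LEF factors; other ligands, WNT5B among them, are best known for branches that do not use beta-catenin. Beta-catenin also ties cadherins to the actin cytoskeleton at adherens junctions, and ZEB1 is a zinc-finger transcription factor that represses E-cadherin during EMT. Granulosa cells are epithelial and lose part of this character when they luteinize.

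Which RNA lay in which column was not settled by the labels or by the data. The titles of all 4 arrays name the opposite dye for the NEFA RNA from their channel fields. By the channel fields the NEFA RNA was labelled with Cy3 (green) on arrays A and B and with Cy5 (red) on arrays C and D. Arrays A and B therefore carry the same orientation, yet their log2 ratios of red over green had r = -0.74 across 43467 probes. On array A the median local background was higher in green than in red (117 against 63.3), and on B, C and D it was lower (60.8 to 75.1 against 116 to 173). The 604 dark corner spots were the other way round, at 377 in green and 496 in red on array A, and at 522 to 687 in green and 391 to 517 in red on the others. With the columns of A exchanged, the ratios of NEFA over control of A and B have r = 0.74, but those of both arrays against C and D run from -0.41 to -0.30. With those of B exchanged instead, all 6 pairs of arrays have r above 0, from 0.30 to 0.74. The ratios of that reading are, array by array, red over green with the columns of A exchanged. A dye effect shared by the arrays therefore cannot be told apart from NEFA in it, and was not tested. The values that follow take the dyes from the channel fields and set NEFA over control, as headed, with array A exchanged and, in part, with array B exchanged. The reading of the titles turns every sign.

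The 3 probes differed in how far they stood above background. The background threshold, set for each array and dye from 153 negative control spots, was their mean raw intensity plus 2 SD. A probe counted as above background if it passed the threshold on all 4 arrays in one dye or the other. The WNT5B probe passed this threshold in all 8 columns, by 1.05 to 1.96 times. Its raw intensities in green and red were 769 and 676 on array A, 661 and 745 on B, 1166 and 510 on C, and 896 and 627 on D. The red column of array C was the nearest to the threshold, which stood at 488 there. On array B the threshold (494 in green and 381 in red) was below the median of the dark corner spots (529 and 391). Passing the threshold on array B therefore does not by itself show a signal above such spots. The WNT5B intensities on B were above both medians, but not far above that in green.

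The CTNNB1 probe stood far above it, at 27.8 to 54.0 times the threshold. Its raw intensities in green and red were 28396 and 18544 on array A, 14228 and 18164 on B, 21682 and 13564 on C, and 30300 and 29409 on D. Green was brighter than red on A, C and D, and red was brighter on B, the same order as for the WNT5B probe.

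The ZEB1 probe was below the threshold in all 8 columns, at 0.413 to 0.783 of it. Its raw intensities in green and red were 265 and 350 on array A, 384 and 277 on B, 423 and 338 on C, and 505 and 427 on D. ZEB1 RNA was thus not well above background in either group, and no fold change of its RNA is read from it.

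**Figure D1:**
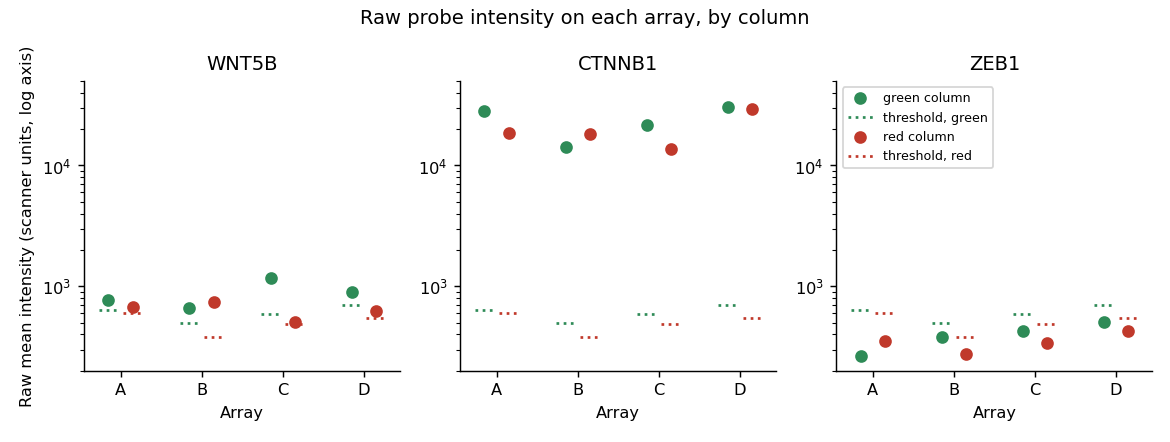
Raw mean intensity (scanner units, log axis) of the WNT5B, CTNNB1 and ZEB1 probes on arrays A to D, in the green and the red column, with the background threshold of each array and dye as a dotted line. CTNNB1 lies at 27.8 to 54.0 times its thresholds, WNT5B at 1.05 to 1.96 times, and all 8 ZEB1 values lie below.

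WNT5B, the secreted ligand, was lower in the NEFA RNA on arrays B, C and D, by the channel fields, as headed and with array A exchanged. After background correction and normalization its log2 ratio was -0.66 on array B, -1.09 on C and -0.45 on D, that is 1.58-fold, 2.13-fold and 1.37-fold. On array A it was 0.64 as headed and -0.64 when the columns are exchanged, 1.56-fold either way. With array B as headed, the reading of array A thus decides whether the 4 replicates have the same sign. The folds of WNT5B are ratios of signals near the background threshold, which limits them.

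As headed, the mean log2 ratio of WNT5B was -0.39 ± 0.74 (SD, n = 4), smaller than its spread between replicates. With array A exchanged it was -0.71 ± 0.27 (SD, n = 4), a 1.64-fold difference, and from arrays B, C and D alone it was -0.73 ± 0.33 (SD, n = 3). With array B exchanged in place of A it was -0.06 ± 0.86 (SD, n = 4), since arrays A and B are then above 0 and C and D below. By the titles the same means are 0.39, 0.71 and 0.06.

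The normalized log2 levels of WNT5B with array A exchanged were 8.79, 8.78, 8.88 and 8.59 in the NEFA RNA of arrays A to D and 9.44, 9.44, 9.97 and 9.04 in the control RNA. The groups did not overlap in that reading, and 0.843% of the 9962 genes shared this. The control level of array C was the highest of the 8 and the NEFA level of array D the lowest. As headed, the NEFA levels ran from 8.59 to 9.44 and the control levels from 8.79 to 9.97, so the groups overlapped.

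CTNNB1 had smaller ratios with the same order of signs. Its log2 ratio was -0.29 on array B, -0.75 on C and -0.13 on D, that is 1.22-fold, 1.69-fold and 1.09-fold, and on array A it was 0.51 as headed and -0.51 exchanged, 1.42-fold. The mean was -0.17 ± 0.52 (SD, n = 4) as headed, -0.42 ± 0.27 (SD, n = 4) with array A exchanged, a 1.34-fold difference, and -0.02 ± 0.56 (SD, n = 4) with array B exchanged. By the titles these means are 0.17, 0.42 and 0.02. Array C contributed most and array D least.

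The normalized log2 levels of CTNNB1 overlapped between the groups in either of the first readings. With array A exchanged they were 14.26, 13.80, 13.67 and 14.68 in the NEFA RNA of arrays A to D and 14.77, 14.09, 14.42 and 14.81 in the control RNA. The lowest control level, on array B, was below the NEFA levels of arrays A and D, so the difference is one within arrays. The ratios of this probe also depended on the quantile step between arrays. Without that step they were -0.40 on array A (exchanged), -0.22 on B, -0.29 on C and 0.02 on D, with a mean of -0.22 ± 0.18 (SD, n = 4). WNT5B moved less, to -0.57, -0.69, -0.94 and -0.42, with a mean of -0.66.

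For ZEB1 only the ratio of 2 signals below background can be given, which is not a fold change of its RNA. In log2 it was 0.09 on array A as headed, -0.09 exchanged, 0.07 on B, 0.15 on C and 0.31 on D. Its mean was 0.16 ± 0.11 (SD, n = 4) as headed, 0.11 ± 0.17 (SD, n = 4) with array A exchanged and 0.12 ± 0.16 (SD, n = 4) with array B exchanged. A difference in ZEB1 RNA was not detectable with this probe in either direction.

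**Figure D2:**
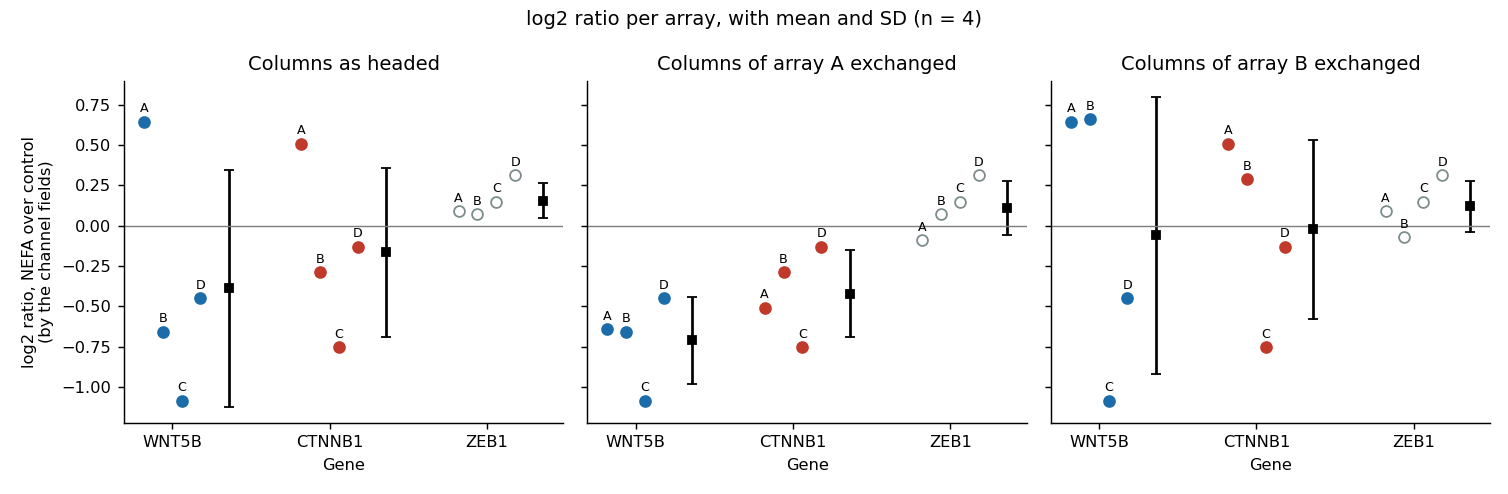
Normalized log2 ratio of NEFA over control by the channel fields for each array (points, lettered A to D), with the mean and SD of n = 4 (squares and bars), under 3 readings of the columns. The ratios of WNT5B and CTNNB1 are below 0 on all 4 arrays only with array A exchanged, and open circles mark ZEB1, whose probe was below background.

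The criterion of the study, an unadjusted p under 0.05 with limma and a 1.2-fold change, was met by 0 of the 3 genes as headed, against 0.803% of the 9962 genes (28 higher and 52 lower). It was met by 2 of 3 with array A exchanged, namely WNT5B and CTNNB1, against 4.17% of genes (108 higher and 307 lower). With array B exchanged it was met by 0 of 3, against 16.1% (785 higher and 822 lower). The members were chosen with this contrast in view and nothing is read from these counts. Ratios below 0 on all 4 arrays, as for WNT5B and CTNNB1 with array A exchanged, were found for 9.38% of genes in that reading. Both shares were higher among the 2479 genes above background, where WNT5B and CTNNB1 belong. With array A exchanged, 13.2% of these 2479 met the criterion and 24.7% had the same sign, either one, on all 4 arrays. At an adjusted p under 0.05 limma called 0 genes as headed (142 at an unadjusted p under 0.05), 1 gene with array A exchanged (584 unadjusted) and 744 genes with array B exchanged (2781 unadjusted). NEFA and dye cannot be told apart in that last reading, so its 744 genes are not read as NEFA differences.

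The background and normalization settings moved the mean of WNT5B less than the readings of the columns did. For CTNNB1 as headed, leaving out normalization between arrays gave -0.02, as did the exchange of array B. With array A exchanged, WNT5B ranged from -0.80 to -0.54 and CTNNB1 from -0.52 to -0.22 over 13 alternatives, below 0 in each. A dye term, no pairing, an intensity trend, detected probes only and a gene's mean over its probes cannot change these means. As headed, CTNNB1 was 0.03 without replicate 3 (array C), above 0 in that alternative only of 16. Without replicate 3, WNT5B was -0.16 as headed and -0.58 with array A exchanged.

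**Figure D3:**
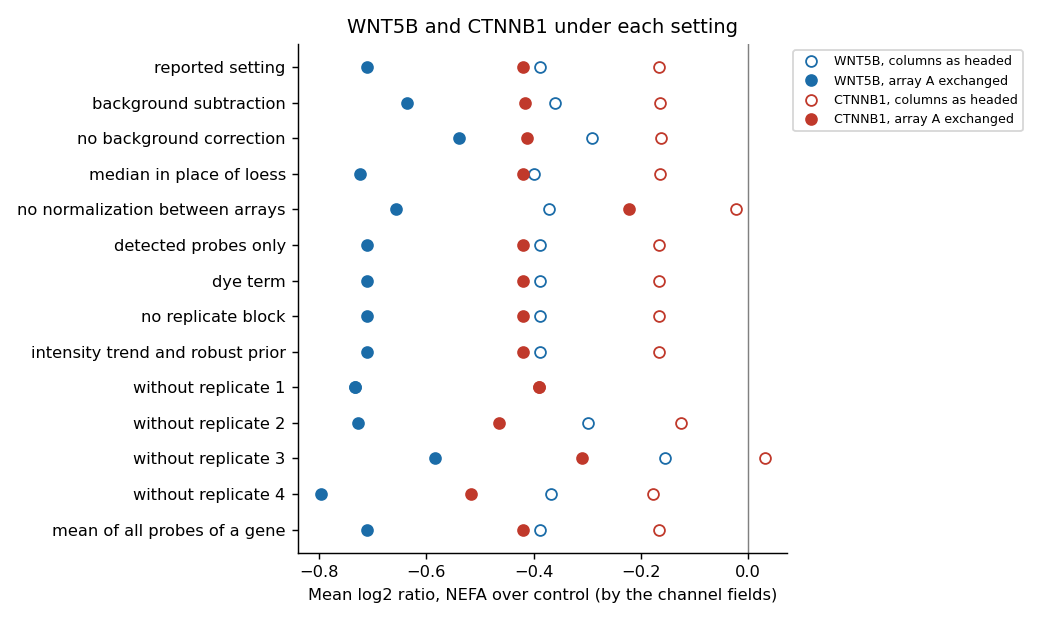
Mean log2 ratio of NEFA over control by the channel fields (horizontal axis) for WNT5B and CTNNB1 under the reported setting and 13 alternatives, with open circles as headed and filled circles with array A exchanged. Filled circles stay between -0.80 and -0.22, and open circles run from -0.73 to 0.03 (without replicate 1 the readings coincide).

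The genes whose 4 log2 ratios of red over green lay nearest to those of WNT5B and CTNNB1 were found by Euclidean distance among the 2479 genes above background, which does not depend on the reading of the columns. For WNT5B they were MGP, a calcification inhibitor of the matrix (distance 0.180), QRFPR, a neuropeptide receptor (0.268), and CTHRC1, a secreted collagen repeat protein (0.390), against a median distance of 1.45. The ratios of MGP were -0.57 on array A (exchanged), -0.67 on B, -1.23 on C and -0.36 on D. MGP was picked for this likeness, and like WNT5B it was lowest on array C and nearest to 0 on D.

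For CTNNB1 the nearest were CCDC91, a coiled-coil protein of Golgi transport (0.133), P4HA1, a subunit of collagen prolyl 4-hydroxylase (0.185), and YPEL1 (0.209), against a median of 0.969. The ratios of CCDC91 were -0.40 on array A (exchanged), -0.35 on B, -0.79 on C and -0.15 on D. For ZEB1 no such genes are given, its probe being below background. These are likenesses of 4 values each.

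None of the other Wnt ligands measured was above background on all 4 arrays in one dye or the other. Of 20 listed genes (18 ligands, PORCN and WLS) 11 were measured, each a ligand, and 0 were above background, WNT1, WNT8B, WNT10B and WNT11 included. The median log2 ratio was -0.06 as headed and -0.03 with array A exchanged, and 0 of 11 met the criterion in either reading. Over all 9962 genes the medians were -0.02 and -0.01.

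Of the Wnt receptors and R-spondins 16 of 23 were measured and 3 were above background. Those 3 were the frizzled receptor FZD10, the co-receptor LRP6 and the Wnt-binding receptor RYK. The medians of the 16 were -0.02 as headed and 0.03 with array A exchanged, and 0 of 16 met the criterion in either. LRP6 had a log2 ratio of -0.01 as headed and 0.33 with array A exchanged, which met the criterion only with a dye term (unadjusted p = 0.00439, limma) or without replicate 3 (0.53), and with array B exchanged its direction turned, to -0.38 (unadjusted p = 0.0407, limma). RYK had -0.25 as headed and -0.22 with array A exchanged.

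Wnt inhibitors were measured for 13 of 17 genes, with DKK3, FRZB and KREMEN1 above background. The medians were -0.06 as headed and -0.04 with array A exchanged, and 0 of 13 met the criterion as headed. FRZB, a secreted frizzled-related decoy of Wnt ligands, met it with array A exchanged, where it fell by 0.39 (SE 0.11, unadjusted p = 0.0119, adjusted p = 0.694, limma). Its ratios were -0.50, -0.48, -0.52 and -0.03 on arrays A to D, lower on 3 arrays and near 0 on D. DKK3, a dickkopf family protein, had a mean of -0.16 as headed and -0.19 exchanged.

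Of the destruction complex and its control 10 of 22 genes were measured, with the kinases GSK3B and CSNK1A1 and the phosphatase subunit PPP2CA above background, and the medians were -0.02 and 0.01. None met the criterion as headed. PPP2CA, the catalytic subunit of protein phosphatase 2A, met it with array A exchanged and fell by 0.33 (SE 0.08, unadjusted p = 0.00546, adjusted p = 0.648, limma), with ratios of -0.39, -0.36, -0.41 and -0.18. All 4 arrays were below 0 in that reading, and as headed its mean was -0.14. The call was lost without background correction (-0.25) and without normalization between arrays (-0.23).

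The nuclear partners of beta-catenin were measured for 10 of 18 genes, with the corepressor TLE4 and the coactivator CREBBP above background and medians of -0.01 and 0.04. The LEF/TCF members named by the rule, TCF7 and TCF7L1, and BCL9L were not well above background. CREBBP had a mean of 0.24 as headed and 0.23 with array A exchanged. It has 2 probes, and over both of them its mean as headed was 0.09. None of the 10 met the criterion in either reading.

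Among known Wnt target genes 11 of 16 were measured and 6 were above background, MYC, CD44, JUN, PPARD, ID2 and PLAUR, with medians of -0.03 and -0.01. None met the criterion as headed. ID2, an inhibitor of basic helix-loop-helix factors, met it with array A exchanged and fell by 0.46 (SE 0.10, unadjusted p = 0.00263, adjusted p = 0.635, limma), with ratios of -0.42, -0.25, -0.69 and -0.50. JUN, an AP-1 subunit, had the widest ratios of the list, 2.20 and 2.12 on arrays A and B and -0.52 and -0.03 on C and D. These split by dye orientation. Its mean of 0.94 did not pass (unadjusted p = 0.107, limma), it passed with a dye term in the model (unadjusted p = 8.22e-06, limma), and with array B exchanged JUN was lower, at -1.22 (unadjusted p = 0.013, limma).

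Of the branches that do not use beta-catenin 23 of 30 genes were measured and 3 were above background, the GTPase RHOA, the kinase subunit CAMK2D and the calcineurin subunit PPP3CC. The medians were -0.02 in either reading and 0 of 23 met the criterion. PPP3CC had a mean of -0.19 with array A exchanged (unadjusted p = 0.0434, limma), under the 1.2-fold limit.

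Over the 7 Wnt lists, 94 genes besides the members were measured and 20 were above background. The criterion was met by 0 as headed, against 0.803% of all genes, and by 3 with array A exchanged, all lower (FRZB, PPP2CA and ID2), that is 3.19% against 4.17%. They are 3 of the 20 above background, against 13.2% of all 2479. In a fit without the pairing of the RNAs on an array, 0 of the 94 met the criterion.

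At the adherens junction, where beta-catenin binds cadherins, 8 of 17 genes were measured and CTNND1, which encodes p120-catenin, and ACTN1 were above background, with medians of -0.02 and 0.07. None met the criterion as headed. CTNNA1, alpha-catenin, met it with array A exchanged, but it was above the threshold in 1 of 8 columns and no fold is given, and its call was lost without replicate 1, without replicate 4, with background subtraction and without background correction. CTNND1 had a mean of -0.11 as headed and -0.10 exchanged. CDH2, N-cadherin, was not well above background.

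Of the EMT transcription factors and their opponents 10 of 18 were measured besides ZEB1, and PRRX1 alone was above background, in 7 of 8 columns, with medians of -0.04 and -0.01. PRRX1, a homeobox factor of mesenchyme, was higher with array A exchanged, by 0.85 (SE 0.31, unadjusted p = 0.0314, adjusted p = 0.886, limma). Its ratios were 1.49, 1.70, -0.02 and 0.26, so arrays A and B carried the difference and the arrays of the other dye orientation did not, and as headed its mean was 0.11. With array B exchanged the direction turned, to -0.74 (unadjusted p = 0.0624, limma). The call was lost without replicate 1 (0.64), without replicate 2 (0.57) and without background correction (0.65). Among ZEB1 cofactors 10 of 11 were measured, with the deacetylases HDAC1 and HDAC2 and the signal mediator SMAD2 above background and medians of -0.01 and 0.03. With array A exchanged SMAD2 fell by 0.37 (SE 0.11, unadjusted p = 0.0131, adjusted p = 0.721, limma), with ratios of -0.62, -0.22, -0.49 and -0.14, and as headed its mean was -0.06. That call was lost without replicate 1 (-0.28) and without normalization between arrays (-0.24).

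Epithelial markers were measured for 12 of 23 genes, with the adhesion molecule EPCAM and the tight junction protein OCLN above background and medians of -0.01 and 0.02, and 0 met the criterion in either reading. EPCAM had a mean of -0.01 as headed and -0.25 with array A exchanged. Mesenchymal markers were better detected, with 19 of 22 measured and 12 above background, among them VIM, FN1, ACTA2, TAGLN and COL1A2. Their medians were -0.07 as headed and -0.04 with array A exchanged. TNC, the matrix protein tenascin C, met the criterion with array A exchanged and fell by 0.37 (SE 0.11, unadjusted p = 0.0168, adjusted p = 0.743, limma). Its ratios were -0.16, -0.14, -0.51 and -0.66, lower on C and D than on A and B, and as headed its mean was -0.29. The call was lost without replicate 3 (-0.32), without replicate 4 (-0.27) and with the mean of its probes (-0.18). S100A4 had a mean of -0.25 as headed (SE 0.10, unadjusted p = 0.0410, limma), under the 1.2-fold limit.

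Over the 5 adhesion and EMT lists, 59 genes were measured and 20 were above background. The criterion was met by 0 as headed and by 4 with array A exchanged, CTNNA1 and PRRX1 higher and SMAD2 and TNC lower, that is 6.78% against 4.17% of all genes. Of the 20 above background 3 met it, against 13.2% of all 2479.

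With array B exchanged other genes of these lists met the criterion, and their names were chosen after their values were seen. They were 18 of the 94 Wnt genes (6 higher and 12 lower, 19.1%) and 8 of the 59 adhesion and EMT genes (2 higher and 6 lower, 13.6%), against 16.1% of all genes. Among genes above background, 9 of 20 Wnt genes and 3 of 20 adhesion and EMT genes met it, against 27.4% of all 2479. Above background, PPARD, a nuclear receptor, was higher by 0.89 (SE 0.09, adjusted p = 0.00965, limma), FZD10 by 0.67 (SE 0.12, adjusted p = 0.0248, limma) and OCLN by 0.55 (SE 0.07, adjusted p = 0.0121, limma). RHOA fell by 0.70 (SE 0.12, adjusted p = 0.0214, limma), PLAUR, the urokinase receptor, by 0.54 (SE 0.12, adjusted p = 0.0419, limma) and MMP2, a gelatinase, by 0.46 (SE 0.11, adjusted p = 0.0488, limma). TLE4 was higher by 0.30 (SE 0.07, adjusted p = 0.0426, limma). These 7 had an adjusted p under 0.05 with limma. PPARD has 2 probes, and as headed the brighter had a mean of 0.55 and both together 0.33. The mean over both was not computed with array B exchanged. The other 5 genes above background met only the unadjusted criterion, CREBBP at 0.36 and GSK3B at -0.43, JUN at -1.22, LRP6 at -0.38 and the collagen cross-linking enzyme LOX at -0.64. The ratios of PPARD were 0.77, 0.67, 1.09 and 1.02 on arrays A to D and those of RHOA were -0.92, -0.89, -0.72 and -0.26, of 1 sign on all 4. With array A exchanged, the mean red over green of PPARD was likewise 0.89 and that of RHOA -0.70. NEFA and dye thus cannot be told apart for the genes named here, and 1 sign on all 4 arrays does not separate them. None of FRZB, PPP2CA, ID2, CTNNA1, PRRX1, SMAD2 and TNC met the criterion in that reading, and FRZB (0.11), PPP2CA (0.04), SMAD2 (0.05) and PRRX1 (-0.74) had the opposite sign from that with array A exchanged, as did CTNNA1.

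**Figure D4:**
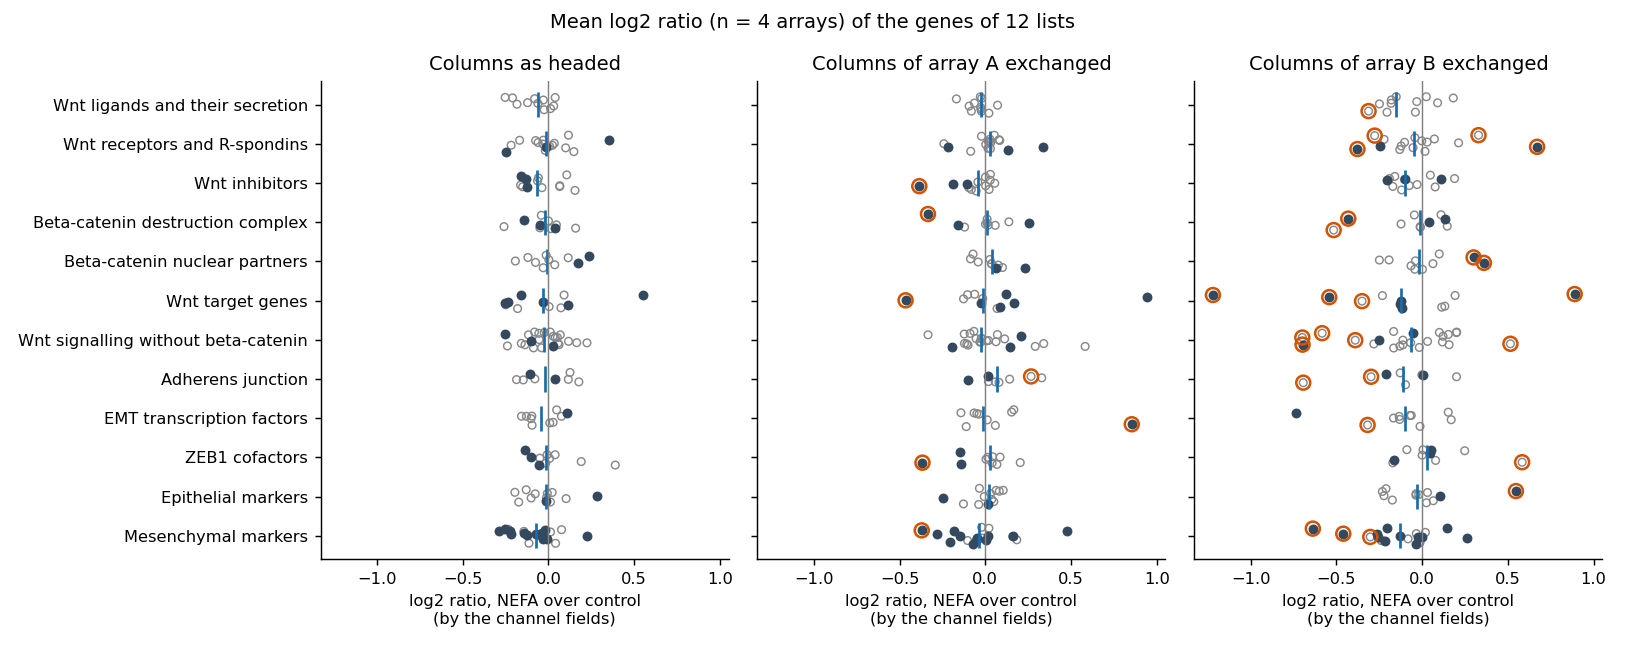
Mean log2 ratio of NEFA over control by the channel fields (n = 4 arrays) for the genes of 12 lists around WNT5B, CTNNB1 and ZEB1 under 3 readings of the columns, with filled points above background, open points not, blue bars for the list medians and orange rings for genes that met the criterion. No gene is ringed as headed, 7 are with array A exchanged (FRZB, PPP2CA, ID2, CTNNA1, PRRX1, SMAD2 and TNC), and 26 are with array B exchanged. In the last reading NEFA and dye cannot be told apart.

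The labelled cell type was set beside its markers. Of 4 measured granulosa markers AMH and FST were above background, at 4.33 to 38.1 and 1.27 to 3.59 times the threshold, NR5A2 was above in 5 of 8 columns and INHBA in 0. The luteal markers LHCGR and PTGFR and the 4 leukocyte, 3 endothelial, 3 theca and 2 erythrocyte markers measured were not above background on all 4 arrays. Only 2 of 6 listed luteal markers were measured. STAR, HSD3B1, CYP11A1 and SCARB1 gave no value under this annotation, so nothing is read about them. Of the cumulus and oocyte markers HAS2 and GDF9 were. Of 5 smooth muscle and fibroblast markers measured, ACTA2, TAGLN and DCN stood at 43.9 to 106 times the threshold. COL1A1 was above it in 2 of 8 columns, at 0.578 to 1.03 times. The part of these markers in the ratios of WNT5B and CTNNB1 was not tested. ACTA2, TAGLN and DCN had mean log2 ratios of -0.01, -0.02 and -0.10 as headed and 0.02, 0.00 and -0.09 with array A exchanged. On single arrays the ratios of ACTA2 and TAGLN ran only from -0.05 to 0.02 as headed. Whether signals as bright as these could show a difference was not tested. CNN1, above the threshold in 5 of 8 columns, met the criterion with array A exchanged (0.34, unadjusted p = 0.0417, limma) and had 0.00 as headed. In such bulk RNA fewer cells of a type and less RNA per cell cannot be told apart.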

How the data were processed

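The 4 replicate pairs of NEFA and control RNA were amplified, labelled with Cy3 and Cy5 and hybridized, and the intensity values the authors deposited are, per the file headers, the mean raw intensity and local background of each of 45220 spots in each dye, with no normalization. Of these, 43794 expression probes were analysed, of which 13146 carry 1 gene symbol (165 symbols were updated) and 30648 none. The background was corrected by normexp (offset 50) in place of subtraction, followed by loess within and quantile normalization between arrays, with 60 to 121 ignored probes per array set to missing (limma 3.58.1, R 4.3.3). limma fitted 1 coefficient, the log2 ratio with the dye orientation of each array as its sign, two-sided, with Benjamini-Hochberg adjustment over all probes, and each array is its own pair. The brightest probe stood for a gene.

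The members, readings and lists were chosen with earlier results of these data known. Named list genes are those that met the criterion as headed or with array A exchanged and the 2 genes of each list with the smallest p in either. The annotation is keyed by spot number. Its 48 ribosomal protein probes had a median log2 intensity of 14.15 against 8.08 for all annotated probes. The 4 columns of the authors' log ratio table were not used, since its rows could not be tied to spots. The array build was not given in the sources used here, so no coordinates are printed. The alternatives were background subtraction or none, a median in place of loess, a dye term, no pairing, no normalization between arrays, an intensity trend with a robust prior, detected probes only, each replicate left out, a gene's mean over its probes, and the exchange of array A with and without a dye term. The exchange of array B was added after seeing the data. The procedure was tested on simulated data, with changes placed on bright probes, all arrays rightly labelled and no dye effect shared between arrays. That test does not cover a weak probe such as that of WNT5B, or wrongly labelled columns. The number of arrays limits the precision.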

Additional observations from a re-analysis of the deposited data

Results flagged for a closer look

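The ratios of the members, of the named list genes and of the genes most like a member gave 114 groups of 4 values, 57 genes in each of 2 readings. In 7 of them 1 array stood far from the other 3 by the gap to its nearest neighbour over the whole range (Dixon's criterion), which chance alone gives in about 1 of 20 groups. None of the 7 was a member. As headed, array B stood apart for the ligand WNT1 (0.12, the nearest other at -0.35), the receptor FZD7 (-0.13, nearest 0.23) and the kinase CSNK1G2 (0.51, nearest -0.43), and array A for the phospholipase PLCB4 (0.39, nearest 0.11). With array A exchanged, array C stood apart for DKK3 (-0.55, nearest -0.11), array D for FRZB (-0.028, nearest -0.48) and array A for PLCB4 (-0.39, nearest 0.07). WNT1, FZD7, CSNK1G2 and PLCB4 were not well above background on all 4 arrays, so these are ratios of weak signals and not folds.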

How the results depend on the processing

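The 85 alternative values of WNT5B, CTNNB1 and ZEB1 all lay within 1 SD of the reported means, a wide limit as headed. Part of them, such as those with a dye term or without pairing, equal the reported mean by construction. The counts moved more, and the cause was not tested. As headed, where 28 genes met the criterion higher and 52 lower and the Wnt and the adhesion and EMT lists held 0, no background correction gave 2 higher and 17 lower, no normalization between arrays 33 lower, and detected probes only 1 higher and 6 lower. No replicate block (no pairing by array) gave 16 higher and 28 lower, and a dye term called 1 EMT gene lower. The exchange of array A gave 108 higher and 307 lower, with 0 and 3 Wnt genes and 2 and 2 EMT genes. With a dye term added it gave 299 and 370, with 5 and 3 Wnt genes and 4 and 2 EMT genes. The exchange of array B, added after seeing the data, gave 785 and 822, with 6 and 12 Wnt genes and 2 and 6 EMT genes. Leaving out 1 replicate in turn gave 13 to 727 higher and 14 to 741 lower, 0 to 6 and 0 to 11 Wnt genes, and 0 to 4 and 0 to 9 EMT genes, each highest without replicate 2 (array B).

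With array A exchanged, where 108 genes were higher and 307 lower, no background correction gave 70 higher and no EMT gene higher (0), and background subtraction 1 EMT gene higher. No normalization between arrays gave 182 higher and 121 lower, with 1 Wnt gene higher and 1 EMT gene lower. Detected probes only gave 52 higher and 1 EMT gene higher, a dye term 299 higher with 5 Wnt and 4 EMT genes higher, and the mean of all probes 1 EMT gene lower. With no replicate block there were 60 higher and 92 lower, 0 Wnt genes lower, and 1 EMT gene higher and 0 lower, so that the calls of FRZB, PPP2CA, ID2, PRRX1, SMAD2 and TNC were lost. Leaving out 1 replicate in turn gave 73 to 336 higher and 238 to 375 lower, 0 to 3 Wnt genes higher and 3 to 4 lower, and 0 to 6 EMT genes higher and 1 to 2 lower. None of the 7 called list genes changed sign under the other settings of that reading, but with array B exchanged FRZB (0.11), PPP2CA (0.04), SMAD2 (0.05), PRRX1 (-0.74) and CTNNA1 did. WNT5B lay near the background threshold and ZEB1 below it, which limits both.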
